A study of Mus musculus with 4 samples.

Results

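Short RNA fragments that began at positions 23 to 38 of a 95 nt segment of the mouse mitochondrial genome, and that ended before its last base, were compared between cells exposed to an extract of cigarette smoke (CSE) and cells left without it. The set was defined by position alone: every distinct pair of a start from 23 to 38 and an end no later than 94. It held 485 of the 1066 distinct fragments listed for the segment, and 3460 reads over 4 libraries. The cells were MLE12, a transformed mouse lung epithelial line, at passage 3 in both groups. In the CSE group (2 biological replicates per the labels) they received 10% CSE for 10 h, where the undiluted extract was the smoke of 1 cigarette bubbled into 5 ml of serum-free medium and passed through a 0.22 um filter. The untreated group (2 biological replicates) received none. No marker of lung epithelium could be read from these tables, since they hold reads of 1 mitochondrial segment.

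Mammalian mitochondrial DNA is transcribed from both strands as long precursors that are cut into messenger, transfer and ribosomal RNAs. Transcription and replication start in the main noncoding stretch, the control region, where short transcripts can also end early or serve as primers for DNA synthesis. Mitochondria of airway and alveolar epithelium are among the cell parts that cigarette smoke is known to damage.

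The segment lies in the noncoding stretch of chromosome MT, at the coordinates in the table names, which stand with the processing steps. None of the 37 mitochondrial genes in the GENCODE M21 annotation overlapped it. The nearest gene on the lower side was mt-Tp, the proline transfer RNA (minus strand, positions 15356 to 15422), which ends 693 nt before it. On the other side, past the origin of numbering, lies mt-Tf, the phenylalanine transfer RNA (plus strand, positions 1 to 68). Positions below are counted from 1 at the first base of the segment as the tables list it. The direction of this count relative to the genome coordinates is unsettled, as the tables were not set beside a mitochondrial sequence.

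The sequence of the segment is shown with the 16 start positions of the set in capitals, and again with 2 stretches of 3' ends in capitals (74 to 81 and 87 to 89, picked after the ends were seen). The stretches hold the most used ends along with weaker ones such as 76. The bases between them are a run of T and the G that opens the run of G at 86 to 89.
Start positions of the set: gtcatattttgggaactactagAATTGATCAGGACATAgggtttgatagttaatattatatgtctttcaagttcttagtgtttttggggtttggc
Stretches of 3' ends of the set: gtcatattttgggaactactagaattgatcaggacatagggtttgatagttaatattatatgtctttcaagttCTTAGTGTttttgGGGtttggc

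The fragments on which the results turn are shown with their first 4 and last 4 bases in capitals, named by start and end. Fragment 27-75 was the most abundant by mean share. Fragments 25-78, 26-79, 35-88 and 36-89 are 54 nt long and were each a larger share of the set in untreated cells, and 28-81 has the same length with the opposite order. Fragment 22-75 is not a member; it starts 1 base before the set, at the most used 5' end of the segment, and is 54 nt long too.
27-75: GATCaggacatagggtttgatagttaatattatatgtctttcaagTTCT
25-78: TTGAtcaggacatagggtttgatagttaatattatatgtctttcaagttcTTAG
26-79: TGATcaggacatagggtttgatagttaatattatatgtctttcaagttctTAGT
28-81: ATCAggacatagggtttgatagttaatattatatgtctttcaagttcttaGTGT
35-88: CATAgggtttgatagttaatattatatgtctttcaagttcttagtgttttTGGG
36-89: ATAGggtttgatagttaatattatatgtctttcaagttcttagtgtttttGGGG
22-75: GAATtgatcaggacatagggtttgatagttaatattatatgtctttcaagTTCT

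The labels state that RNA freed of DNA was dephosphorylated, given a radioactive phosphate, and cut from a gel at 15 to 100 nt. A 3' adaptor was ligated and libraries were read from both ends for 75 bp. The fragments listed were 28 to 70 nt long. The tables number the libraries, and these numbers are kept here: CSE 3 and CSE 4, and untreated 1 and untreated 2. After 23 reads across the join of the segment's 2 copies were dropped, the tables listed 4715 reads in CSE 3 and 5447 in CSE 4, against 982 in untreated 1 and 1424 in untreated 2. No library total accompanies them, so whether the segment's RNA was more abundant in treated cells cannot be told from a larger library, and every value below is a share. The untreated libraries rest on fewer reads, so their shares carry more counting error. With 2 libraries against 2, the two-sided exact permutation test used for single values cannot give a p below 0.333.

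Fragments of the set were a smaller share of the segment's reads in CSE cells. They made up 25.7% of listed reads in CSE 3 (1213 reads, 95% Wilson interval 24.5 to 26.99%) and 26.8% in CSE 4 (1460 reads, 25.6 to 27.996%). In untreated 1 they made up 32.0% (314 reads, 29.1 to 34.96%) and in untreated 2 33.2% (473 reads, 30.8 to 35.7%). The groups did not overlap, with 26.3% ± 0.762 in CSE and 32.6% ± 0.877 in untreated cells (SD, n = 2 each), which is p = 0.333 in the exact permutation test, its lower limit. When each distinct fragment was counted once instead of by its reads, the difference of -6.33 percentage points became 1.03. That is a different measure, a share of distinct fragments. It depends on read depth, which was lower in the untreated libraries, and was not thinned to equal reads.

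The set was not dominated by any fragment. The most abundant fragment of each library held 1.73% of the set's reads in CSE 3 (33-81) and 1.16% in CSE 4 (27-74), against 2.87% in untreated 1 (27-75) and 2.54% in untreated 2 (35-88). Of the 485 fragments, 81 were read in all 4 libraries, 136 in 1 library, and 364 had under 10 reads in total. The 485 are most of the 597 start and end pairs that the listed lengths allow. At an equal 314 reads per library, 193 and 195 distinct fragments would be expected in CSE 3 and CSE 4, against 158 and 178.1 in untreated 1 and untreated 2. CSE reads were thus spread over more pairs of ends in both libraries, with means of 194 ± 1.64 in CSE and 168.0 ± 14.2 in untreated cells (SD, n = 2 each, exact permutation p = 0.333).

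Between the groups, the lengths differed around 54 nt. Untreated libraries had a peak at 53 to 54 nt, which was a known feature of these data when the set was chosen and is no independent finding. Reads of 54 nt were 5.69% of the set in CSE 3 (69 reads) and 5.41% in CSE 4 (79 reads), against 15.0% in untreated 1 (47 reads) and 12.1% in untreated 2 (57 reads). Both CSE libraries lay far below both untreated ones, and the Wilson intervals of CSE (4.52 to 7.14% and 4.36 to 6.69%) did not reach those of untreated cells (11.4 to 19.3% and 9.42 to 15.3%). The share of 54 nt reads fell by 1.27 on the log2 scale (SE 0.303), to 5.55% ± 0.196 in CSE against 13.5% ± 2.06 in untreated cells (SD, n = 2 each). In edgeR's quasi-likelihood test with Benjamini-Hochberg adjustment the adjusted p was 0.00599. The length of 54 nt was the 1 length called of 43 tested in the set. Over all start classes it was also the only 1 of 159 lengths tested that was called as lower (0.629%). The call was lost without CSE 3 (adjusted p 0.326), without CSE 4 (adjusted p 0.340) and with DESeq2 (adjusted p 0.0724).

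Reads of 53 nt showed the same order without passing the test. They were 5.44% in CSE 3 and 5.27% in CSE 4, against 9.24% in untreated 1 and 10.1% in untreated 2 (log2 difference -0.86, edgeR adjusted p 0.137). The lengths on either side were closer: 55 nt reads were 5.69% and 5.75% in CSE 3 and CSE 4, against 8.60% and 4.86% in untreated 1 and untreated 2, and the groups overlapped. For 52 nt the shares were 5.36% and 5.34% in the CSE libraries, against 5.41% and 6.34% in the untreated ones. For 51 nt they were 5.28% and 4.52% in CSE, against 5.41% and 6.77% in untreated cells. In the CSE libraries the profile was thus nearly level from 51 to 55 nt, and in untreated cells it peaked at 54 nt.

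**Figure D1:**
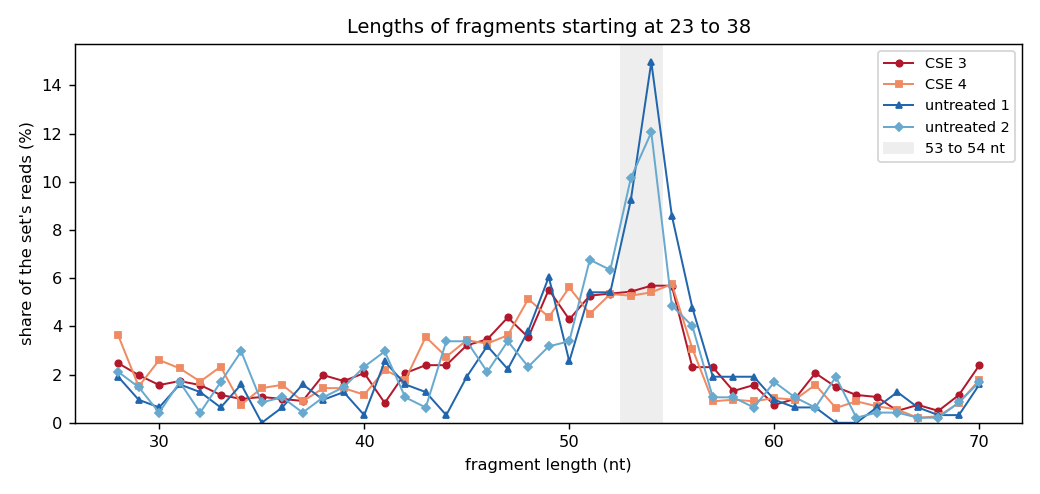
Share of the set's reads (%, vertical axis) at each fragment length (nt, horizontal axis) in 2 CSE and 2 untreated libraries, with 53 to 54 nt shaded. The untreated lines peak at 54 nt with 15.0% and 12.1%, where the CSE lines stand at 5.69% and 5.41%.

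Shorter fragments took a larger share of the set in CSE cells. Reads of 41 to 50 nt were 32.1% and 35.8% in CSE 3 and CSE 4, against 25.5% and 25.8% in untreated 1 and untreated 2. Reads of 28 to 30 nt were 6.02% and 7.74% in the CSE libraries, against 3.503% and 4.02% in the untreated ones. The class of 51 to 60 nt, which contains the peak, was 35.7% and 33.2% in CSE, against 55.1% and 48.6% in untreated cells, a difference of -17.4 percentage points. Reads of 61 to 70 nt were 12.0% and 8.36% in CSE, against 6.05% and 7.61% in untreated cells. Reads of 31 to 40 nt were 14.18% and 15% in CSE, against 9.87% and 13.95% in untreated cells. In none of the 5 classes did the groups overlap, narrowly so in the last, and each exact permutation p was 0.333, the smallest possible. Shares of 1 set add up to the whole, so a smaller share at 53 to 54 nt goes with larger shares elsewhere. In CSE 3 and CSE 4 the median read was 50 and 49 nt long, against 53 and 51 nt in untreated 1 and untreated 2.

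Among single lengths, 16 of 43 were higher in both CSE libraries than in both untreated ones, beside 28.3% of all lengths tested, and 7 were lower, beside 16.4%. In edgeR 6 lengths had an unadjusted p under 0.05, and in DESeq2 0 were called and 3 had an unadjusted p under 0.05. Besides 53 and 54 nt they were 30, 34, 43 and 64 nt, named after their values were seen. Reads of 43 nt took 2.39% and 3.56% of the set in CSE, against 1.27% and 0.634% in untreated cells (log2 difference 1.73, edgeR adjusted p 0.137). Reads of 30 nt took 1.57% and 2.60% in CSE, against 0.637% and 0.423% in untreated cells (log2 difference 2.01, edgeR adjusted p 0.179). Reads of 34 nt went the other way, with 0.989% and 0.753% in CSE, against 1.59% and 2.96% in untreated cells (log2 difference -1.44, edgeR adjusted p 0.240). Reads of 64 nt took 1.15% and 0.890% in CSE, against 0% and 0.211% in untreated cells (log2 difference 2.87, edgeR adjusted p 0.240).

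Taken as 1 band, reads of 53 and 54 nt were 11.1% of the set in CSE 3 (135 reads) and 10.7% in CSE 4 (156 reads), against 24.2% in untreated 1 (76 reads) and 22.2% in untreated 2 (105 reads). The CSE mean of 10.9% ± 0.314 was 0.470 times the untreated mean of 23.2% ± 1.42 (SD, n = 2 each, exact permutation p = 0.333). Set against all listed reads, the groups lay further apart in the band than in the rest of the set. The set's band reads were 2.86% of all listed reads in each CSE library, against 7.74% in untreated 1 and 7.37% in untreated 2. The rest of the set was 22.9% and 23.9% in CSE, against 24.2% and 25.8% in untreated cells, means of 23.4% ± 0.761 and 25.04% ± 1.14 (SD, n = 2 each). Over the whole segment, the set supplied 52.53% and 51.5% of all 53 to 54 nt reads in CSE 3 and CSE 4, against 66.7% and 62.5% in untreated 1 and untreated 2. Widened to 52 to 55 nt, a choice made after the data were seen, the band was 22.2% and 21.8% in CSE, against 38.2% and 33.4% in untreated cells.

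The band was found at every start position and was a smaller share in the CSE group than in the untreated group at 16 of 16 of them. At 12 of 16 both CSE libraries lay below both untreated ones. The starts divide the reads of a band already known to be lower in CSE, so these counts add no support of their own. Outside the set the same order stood at starts 22, 39 and 41 and not at 40. Fragments that start at 35 had the largest share of their own reads in the band in CSE 4 and in both untreated libraries. Of these, 5 of 38 reads in CSE 3 (13.2%) and 13 of 37 in CSE 4 (35.1%) were 53 or 54 nt long, against 9 of 14 in untreated 1 (64.3%) and 18 of 23 in untreated 2 (78.3%). Start 36, next to it, had 17.4% and 12.1% in the CSE libraries, against 33.3% and 38.7% in the untreated ones. Start 29 had 13.6% and 14.9% in CSE, against 42.9% and 31.3% in untreated cells. At start 26 the 2 untreated libraries differed from each other, with 10.6% and 11.9% in CSE, against 52.9% in untreated 1 (9 of 17 reads) and 18.5% in untreated 2. Start 28 was 1 of the 4 positions where the groups overlapped, with 29% (29 of 100 reads) and 21.4% in CSE, against 24% (6 of 25) and 33.3% in untreated cells. The most frequent length was 53 or 54 nt at 2 of 16 starts in pooled CSE reads and at 7 of 16 in pooled untreated reads. At 10 of the 16 starts each untreated library had fewer than 30 reads, and no single start was tested.

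**Figure D2:**
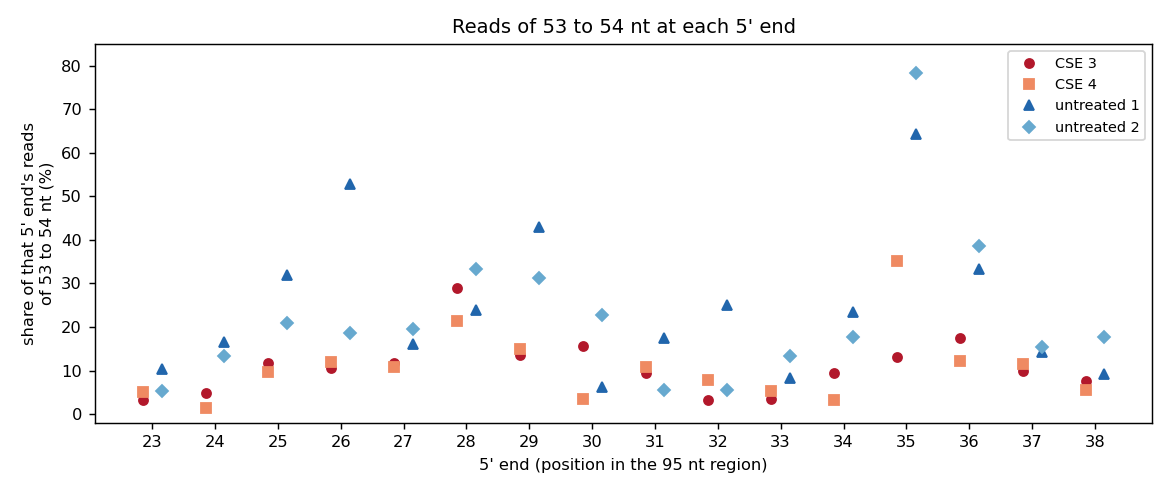
Share of the reads at each 5' end (horizontal axis, position in the segment) that were 53 to 54 nt long (%, vertical axis), 1 point per library. Start 35 stands highest in untreated 1 and untreated 2 with 64.3% and 78.3%, where CSE 3 and CSE 4 have 13.2% and 35.1%.

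In the neighbouring start classes the band of 53 to 54 nt was also a smaller share in both CSE libraries than in both untreated ones, from fewer reads. Among fragments that start at 22, 53 to 54 nt reads were 6.07% and 7.59% in CSE 3 and CSE 4, against 8.27% and 13.8% in untreated 1 and untreated 2. The log2 share in the set minus that at start 22 was 0.88 and 0.49 in CSE, against 1.55 and 0.68 in untreated cells (exact permutation p = 0.667). The groups overlapped in that difference, and without untreated 1 the mean difference of -0.43 became 0.00056. For starts 39 to 67 the band was 0.744% and 1.21% in CSE, against 4.24% and 1.74% in untreated cells, and the log2 share in the set minus that in this class overlapped between groups (exact permutation p = 0.667). For starts 39 to 41, where these lengths still end before the last base (a choice made after the data were seen), the band was 4.76% and 8.89% in CSE, against 37.5% and 24% in untreated cells. There the log2 share in the set minus that in the class was 1.22 and 0.27 in CSE, against -0.63 and -0.11 in untreated cells. The groups did not overlap (exact permutation p = 0.333, the smallest possible), and the band differed less between groups in the set than at starts 39 to 41. That order rests on few untreated reads. Over both untreated libraries the band held 2 of 9 reads at start 39, 0 of 11 at start 40 and 10 of 21 at start 41. With the band widened to 52 to 55 nt the groups overlapped outside the set, except at start 22. The shares were 1.82% and 2.43% in CSE, against 4.66% and 2.32% in untreated cells, for starts 39 to 67. For starts 39 to 40, which can hold all 4 lengths, they were 12.8% and 18.75% in CSE, against 28.6% and 7.69% in untreated cells. Fragments that reach the last base showed no such order, with 3.499% and 2.19% in CSE, against 3.38% and 2.49% in untreated cells.

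The neighbouring positions 26 and 27 were the most used 5' ends of the set by mean share. Fragments that start at 27 were 14.7% and 16.4% of the set in CSE 3 and CSE 4, against 15.9% and 17.3% in untreated 1 and untreated 2 (15.5% ± 1.20 against 16.6% ± 0.999, SD, n = 2 each). This end differed by less than the spread between libraries (log2 difference -0.10, edgeR adjusted p 0.946). Fragments that start at 26 were 12.4% and 13.8% in CSE, against 5.41% and 11.4% in untreated cells (13.1% ± 0.981 against 8.42% ± 4.24). Both CSE libraries were higher, and untreated 1 stood apart from untreated 2. The log2 difference of 0.58 had an edgeR adjusted p of 0.344, and without untreated 2 it became 1.28 with an adjusted p of 0.0031. That value sets the CSE pair against untreated 1 alone, which is assumed to vary like the CSE libraries, and the same limit holds for every value below with an untreated library left out. Start 23 held 10.2% and 8.01% in CSE, against 9.24% and 7.82% in untreated cells. Start 28 held 8.24% and 8.01% in CSE, against 7.96% and 5.71% in untreated cells. Start 25 held 7.75% and 7.74% in CSE, against 7.96% and 5.07% in untreated cells.

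None of the 16 starts was called by edgeR (0% of 86 tested over all classes) or by DESeq2. In edgeR 2 had an unadjusted p under 0.05, in DESeq2 0. Both were near the far end of the window and lower in CSE. Start 36 held 3.79% and 4.52% in CSE, against 6.69% and 6.55% in untreated cells, and start 35 held 3.13% and 2.53% in CSE, against 4.46% and 4.86% in untreated cells (log2 differences -0.66 and -0.73, edgeR adjusted p 0.344 for each). Of the 16 starts, 2 were higher in both CSE libraries than in both untreated ones, beside 23.3% of all starts tested, and 4 were lower, beside 18.6%. In windows of 4, starts 23 to 26 held 37.1% and 34.3% of the set in CSE, against 28.3% and 30.7% in untreated cells. Starts 35 to 38 held 15.2% and 15.6% in CSE, against 16.9% and 20.5% in untreated cells. Neither pair of groups overlapped, with an exact permutation p of 0.333 for each.

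The 3' ends gathered in 2 stretches of the segment with a thinner gap between. Ends at 74 to 81 held 44.4% and 42.2% of the set in CSE 3 and CSE 4, against 50.6% and 41.9% in untreated 1 and untreated 2. Ends at 87 to 89, inside the run of G, held 12.9% and 11.03% in CSE, against 17.2% and 15.0% in untreated cells. The 5 positions from 82 to 86 between them, which include the first G of that run, held 7.91% and 7.05% in CSE, against 9.24% and 12.5% in untreated cells. Single ends outside the stretches, such as 54, 69, 72 and 82, held more reads than 76 inside the first one. These stretches were picked after the ends were seen and are given as description.

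Position 81 was the most used 3' end by mean share over all libraries, though position 75 had the larger mean in untreated cells. Position 81 held 10.96% and 7.12% of the set in CSE, against 12.1% and 6.13% in untreated cells (9.04% ± 2.72 against 9.12% ± 4.22, SD, n = 2 each). Libraries of 1 group differed more than the groups did. Position 75 was lower in CSE, with 5.36% and 6.37%, against 12.1% and 8.03% in untreated cells (5.86% ± 0.715 against 10.1% ± 2.88). Its log2 difference of -0.75 (SE 0.258) had an unadjusted p of 0.018 and an adjusted p of 0.323 in edgeR's test, and as a share of all listed reads it passed with an adjusted p of 0.0129. Position 79 held 6.02% and 6.16% in CSE, against 6.37% and 7.19% in untreated cells. Position 80 held 5.61% and 6.37% in CSE, against 5.41% and 5.07% in untreated cells. Position 87 held 5.03% and 4.52% in CSE, against 7.01% and 4.86% in untreated cells.

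Within the set, positions 71 and 72, just before the first stretch, were used almost only in CSE libraries, and are named after their values were seen. Ends at 72 had 21 reads in CSE 3 and 53 in CSE 4, against 0 in untreated 1 and 1 in untreated 2. That is a ratio of shares of 21.8, with a counting interval of 3.88 to 897 for the odds ratio of the pooled reads. Ends at 71 had 17 and 21 reads in CSE, against 0 and 0 in untreated cells. By counting error alone, 0 in 787 pooled untreated reads allows a share of up to 0.381% (3 reads over the group). The pooled CSE share was 3.73 times that floor. The floor and the counting interval for 72 leave out the spread between libraries, so they set no lower limit on the group difference. Neither end passed edgeR's test as set (adjusted p 0.147 for each). Both passed with TMM factors (adjusted p 0.00655 for 71 and 0.00169 for 72), with no count minimum (0.0207 and 0.00481) and as a share of all listed reads (0.0152 and 0.0129). Neither passed with DESeq2, without 70 nt reads, without 53 to 54 nt reads or with either CSE library left out. Without untreated 1 the log2 differences were 6.91 for 71 and 3.61 for 72. Without untreated 2, position 72 passed, as did position 68 (adjusted p 0.0312 for each).

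None of the 44 3' ends tested was called by edgeR or DESeq2. In edgeR 0% of 119 were called over all classes except fragments that reach the last base. The unadjusted p was under 0.05 for 7 of the 44 in edgeR and for 3 in DESeq2. Of the 44 ends, 11 were higher in both CSE libraries, beside 20.2% of all ends tested, and 7 were lower, beside 16%. By windows, ends at 50 to 60 held 11.05% and 13.7% of the set in CSE, against 7.01% and 8.67% in untreated cells. Ends at 81 to 90 held 32.7% and 25.96% in CSE, against 41.7% and 34.7% in untreated cells. Neither pair of groups overlapped (exact permutation p = 0.333 for each). Ends at 71 to 80 overlapped, with 37.8% and 41.5% in CSE, against 39.2% and 37.8% in untreated cells.

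**Figure D3:**
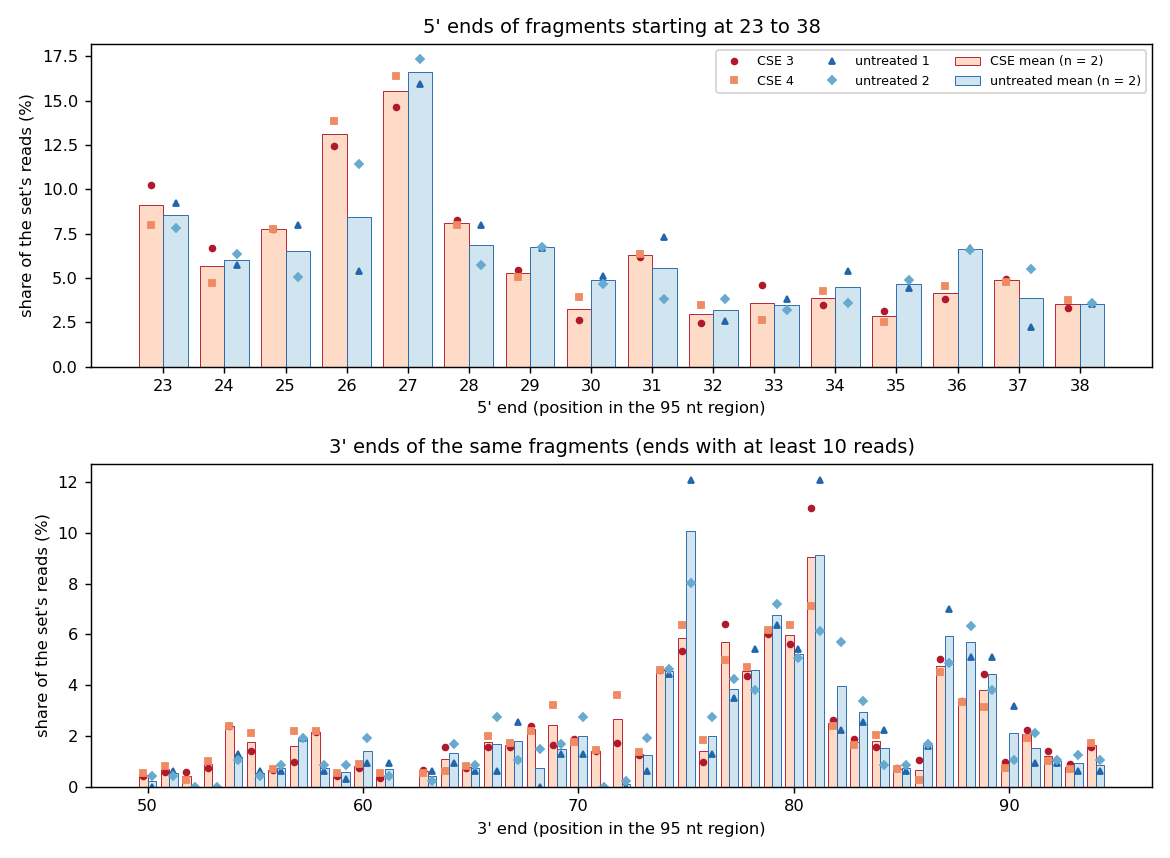
Shares of the set's reads (%, vertical axes) by 5' end (top) and by 3' end with at least 10 reads (bottom), with bars for the mean of 2 libraries and points for each library, CSE left of untreated. Start 26 is higher in both CSE libraries, end 75 is lower, and ends 71 and 72 carry CSE reads and 1 untreated read.

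The 2 ends of a fragment moved together. When the 3' end was regressed on the 5' end over the set's reads, the slope was 0.627 and 0.798 in CSE 3 and CSE 4, against 0.716 and 0.715 in untreated 1 and untreated 2. A slope of 0 would mean that 3' ends stay in place as starts move, and a slope of 1 that length stays the same. The listed lengths and the last base constrain the possible pairs, and taking each of the 597 once gave 0.534. Without the 53 to 54 nt reads the untreated mean of 0.715 became 0.564. In untreated cells fragments along the line of 53 to 54 nt stood out from start 25 to start 29 and again from 34 to 36, with the 3' end moving from 77 to 82 and from 86 to 89.

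**Figure D4:**
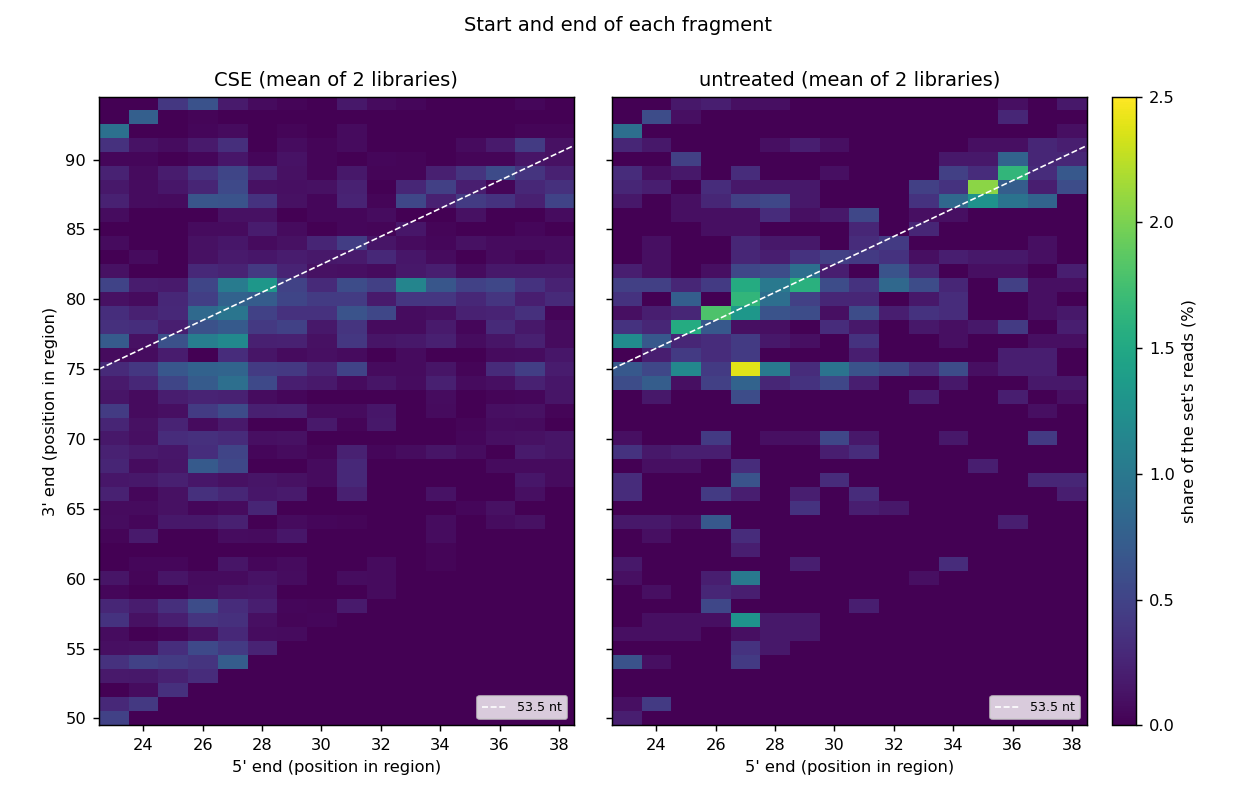
Each cell is a pair of 5' end (horizontal axis) and 3' end (vertical axis), coloured by its share of the set's reads (%, mean of 2 libraries), for CSE (left) and untreated cells (right), and the dashed line marks a length between 53 and 54 nt. Many cells on the line are brighter in untreated cells, such as 35-88 with 0.213% in CSE and 2.06% in untreated cells. Some are not, such as 28-81 with 1.32% in CSE and 1.01% in untreated cells.

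Fragment 35-88, 54 nt long, was the 1 fragment of 121 tested that passed edgeR's test. Over all classes it was also the only 1 of 317 fragments tested that was called as lower (0.315%). It had 1 read in CSE 3 and 5 in CSE 4, against 5 in untreated 1 and 12 in untreated 2. As a share of the set this was 0.0824% and 0.342% in CSE, against 1.59% and 2.54% in untreated cells (0.213% ± 0.184 against 2.06% ± 0.668, SD, n = 2 each). The share fell by 3.18 on the log2 scale (SE 0.772, edgeR adjusted p 0.0139). The call rests on 23 reads, was lost without untreated 2 (adjusted p 0.537), with TMM factors (0.0724), with no count minimum (0.0894) and with DESeq2 (0.999), and the fragment was known from earlier results of these data.

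Of the 10 most abundant fragments by mean share, which gives the shallower untreated libraries equal weight, 9 had a lower mean share in CSE cells, and of these only 35-88 passed the test. Ranked by reads instead, 5 of the 11 fragments with at least 31 reads had a lower mean share in CSE and 6 a higher one, a ranking added after the data were seen. Fragment 27-75 had 12 and 9 reads in CSE, against 9 and 9 in untreated cells, which is 0.989% and 0.616% of the set in CSE, against 2.87% and 1.90% in untreated cells (log2 difference -1.53, edgeR adjusted p 0.255). Fragment 26-79 had 10 and 13 reads in CSE, against 8 and 5 in untreated cells. Its shares were 0.824% and 0.890% in CSE, against 2.55% and 1.06% in untreated cells. Fragment 36-89 had 8 and 7 reads in CSE, against 5 and 8 in untreated cells (0.660% and 0.479% of the set in CSE, against 1.59% and 1.69% in untreated cells). In each of these 3 both CSE shares lay below both untreated ones. Fragment 28-81 was the exception among the 10 by mean share, with 18 and 17 reads in CSE, against 3 and 5 in untreated cells (1.48% and 1.16% in CSE, against 0.955% and 1.06% in untreated cells). Fragment 27-81 had 16 and 11 reads in CSE, against 9 in untreated 1 and 1 in untreated 2, so that the untreated libraries stood on both sides of the CSE ones.

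The remaining fragments of the 10 most abundant were 27-80, 27-79, 29-81 and 23-77. Fragment 29-81, known from earlier results of these data, had 7 and 6 reads in CSE, against 6 and 6 in untreated cells. Fragment 27-80 had 10 and 11 in CSE, against 5 and 8 in untreated cells. Both were lower as shares in both CSE libraries, as was 23-77. Fragment 27-79 overlapped between groups. Fragments 25-78 (1 and 5 reads in CSE, against 7 and 4 in untreated cells) and 27-60 (0 and 2 reads in CSE, against 3 and 5 in untreated cells) were known from earlier results. Their edgeR adjusted p were 0.202 and 0.194.

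Among the 121 tested fragments, 35 were higher in both CSE libraries, beside 24.9% of all fragments tested, and 23 were lower, beside 18%. In edgeR 18 had an unadjusted p under 0.05, while DESeq2 called 0 and had 4 under 0.05. The 10-read minimum was met mostly through the CSE libraries, which hold 2673 of the set's reads, against 787 in the untreated ones, so fragments frequent in CSE passed it more readily. Of the 121, 17 were 53 or 54 nt long, and 10 of these were lower in both CSE libraries and 2 higher, given as description.

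Compared with fragments that start at 22, the set used 3' ends from 77 to 81 more often. The comparison was limited to ends 65 to 91, which every start from 22 to 38 can reach, with each class scaled to its own reads there and the library as a block, so that it is within each library and across treatments. Of 27 ends, 5 were called higher in the set (18.5% of those tested) and 2 lower (7.41%) in edgeR's test. End 79 was 7.64% ± 0.558 of reads in the set and 3.86% ± 0.222 at start 22 (SD, n = 4 libraries each), higher in 4 of 4 libraries, with a log2 difference of 0.94 and an edgeR adjusted p of 0.00254. End 81 was 10.7% in the set and 6.09% at start 22 (log2 difference 0.86, edgeR adjusted p 0.00352, higher in 4 of 4 libraries). End 80 was 6.69% in the set and 3.65% at start 22, and end 77 was 5.72% in the set and 3.15% at start 22 (log2 differences 0.95 and 1.09, edgeR adjusted p 0.00389 and 0.00352, higher in 4 and 3 of 4 libraries). End 78 was 5.43% in the set and 3.57% at start 22 (log2 difference 0.66, edgeR adjusted p 0.0407).

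End 91 was 2.16% in the set and 19.95% at start 22, where a fragment that ends at 91 has the greatest listed length, 70 nt, so its true 3' end may lie further on. End 90 was 1.74% in the set and 2.95% at start 22 (log2 difference -1.31, edgeR adjusted p 0.0374, lower in 3 of 4 libraries). With 70 nt reads left out and ends 65 to 90 compared, end 78 was no longer called (adjusted p 0.310), and 77, 79, 80 and 81 stayed higher with log2 differences of 0.78, 0.62, 0.64 and 0.55. Without 53 to 54 nt reads, 77 and 81 of these 5 stayed called, and 78, 79 and 80 did not (edgeR adjusted p 0.448, 0.294 and 0.241). DESeq2 called 0 ends higher and 1 lower. Without CSE 3 1 end was called higher and 1 lower, and without CSE 4 2 higher and 1 lower. Ends 74, 75, 87, 88 and 89 were not called in either direction.

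**Figure D5:**
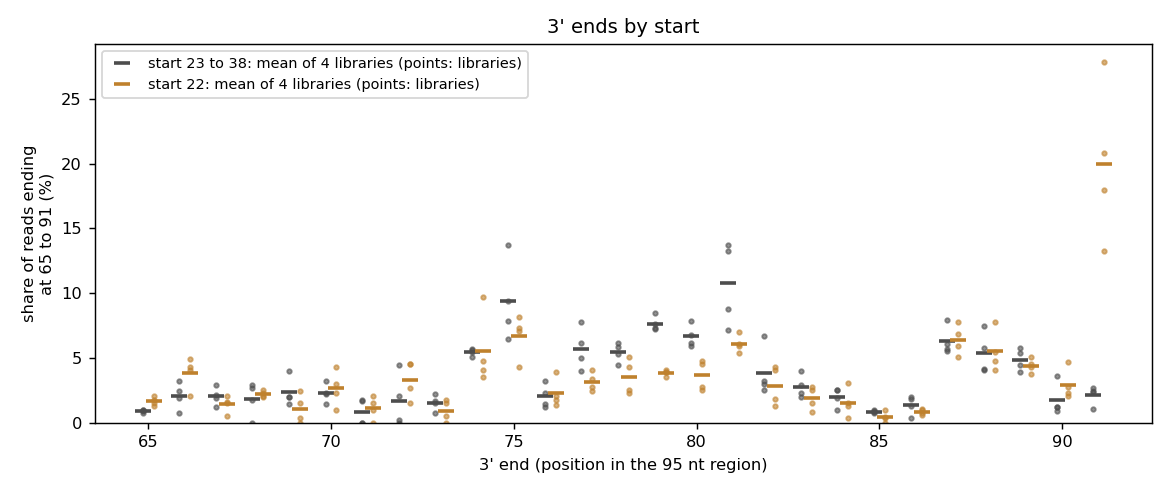
Share of the reads that end at 65 to 91 (%, vertical axis) at each 3' end (horizontal axis) for fragments of the set (dark) and for those that start at 22 (brown), with lines for the mean of 4 libraries and points for each library. Ends 77 to 81 are higher in the set, and end 91 is 2.16% in the set and 19.95% at start 22.

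Some bases at the fragment ends stood near their share of the positions available and others did not. The first base was A in 41.9% and 39.7% of the set's reads in CSE 3 and CSE 4, against 45.9% and 37.4% in untreated 1 and untreated 2, where 43.8% of the 16 start positions hold A. The last base was T in 48.1% and 49.8% in CSE, against 55.4% and 52.01% in untreated cells, where 53.3% of the 45 possible end positions hold T. The base after the 3' end was T in 57.8% and 57.1% in CSE, against 60.8% and 54.97% in untreated cells, where 51.1% of those positions hold T. It was A in 9.98% and 13.5% in CSE, against 6.69% and 10.1% in untreated cells, where 17.8% of the positions hold A. The base before the 5' end was T in 33.1% and 37.9% in CSE, against 29.9% and 36.998% in untreated cells, where 25% of the positions hold T. The first base was C in 5.77% and 6.44% in CSE, against 9.55% and 9.51% in untreated cells, where 12.5% of the positions hold C. None of these shares was tested. As a description of the sequence alone, the fold predicted for positions 22 to 95 as RNA (-10.4 kcal/mol) paired 22 with 74 and left 75 to 95 unpaired. Ends at or after 74 held 72.2% and 66.4% of the set in CSE, against 83.4% and 75.9% in untreated cells. Starts within the set remove the first strand of that stem step by step, and the predicted energy was -8.0 kcal/mol for 26-79, -7.3 for 27-75 and -4.4 for 35-88. No structure was measured.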

How the data were processed

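Small RNA libraries of MLE12 cells (2 CSE, 2 untreated) were analysed from the authors' deposited tables, which give raw read counts per distinct fragment with its start, end, length and sequence. Per the file headers and table names, reads were aligned with BLASTN to chrM:16116-16210 of the mouse mitochondrial reference. Software versions, trimming, read joining and any removal of copies were not given in the sources used here. Positions run over 2 joined copies of the 95 nt segment: 11 reads in the second copy were moved to the first, and 23 across the join were dropped. Groups came from the table names. Since the CSE tables carry the numbers 3 and 4 and the untreated ones 1 and 2, none was matched to 1 labelled replicate.

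Features (single 5' ends, 3' ends, lengths and fragments) with 10 or more reads in total were tested with edgeR 4.0.16 (R 4.3.3; quasi-likelihood, offset the log of the reads of the start class in each library), with Benjamini-Hochberg adjustment over all start classes and a threshold of 0.05. The classes were fragments that reach the last base, start 22, start 23 to 38, start 39 to 67 and others. For 5' ends the start 22 class was left out, and for 3' ends the class that reaches the last base, as their shares there are fixed. Single values used a two-sided exact permutation test of the difference of group means, over every split of the libraries. Intervals and chi-square tests used scipy 1.17.1. DESeq2 1.42.0, TMM factors, no count minimum, shares of all listed reads, each library left out in turn, no 70 nt reads, no 53 to 54 nt reads, starts 24 to 37 and each fragment counted once were the alternatives. A band of 52 to 55 nt, starts 39 to 41 and a ranking of fragments by reads were added after the data were seen. Folds were predicted with ViennaRNA 2.7.2. Intervals (95% Wilson for shares, exact Poisson for counts) and the 3-read floor reflect counting error alone, as amplified copies of a molecule could not be told apart.

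Named features were the 5 most abundant 5' ends, 3' ends and lengths and the 10 most abundant fragments by mean share, plus called ones; others are said to be named after their values were seen. The set, its lists and its tests were chosen with earlier results of these data known. A chi-square test over fragments with at least 10 reads in a pair gave p = 1.29e-14 between the CSE libraries (257 fragments) and 0.0125 between the untreated ones (56 fragments) for all classes, and 0.000387 (89) and 0.138 (11) within the set, so all 4 libraries were kept as separate replicates. Labels call the replicates biological without naming separate cultures, so p-values measure the spread between these libraries.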

Additional observations from a re-analysis of the deposited data

How the results depend on the processing

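No paired analysis was possible because the labels number both groups 1 and 2 while the tables are numbered 3 and 4 for CSE and 1 and 2 for untreated cells, so that no table could be matched to a labelled replicate. The difference in the share of 53 to 54 nt reads stayed between -13.3 and -11.3 percentage points when any 1 library was left out, and that of 51 to 60 nt reads between -20.7 and -14.2. The number of called lengths lower in CSE was 0 to 1 without 1 library, 0 without 53 to 54 nt reads and with DESeq2, and 2 with TMM factors and as a share of all listed reads. That of 5' ends called higher was 0 to 1, and of 3' ends called higher 0 to 2, without 1 library. With TMM factors, no count minimum or shares of all listed reads, 2 3' ends were called higher, and with the last of these 1 lower. Fragments called lower were 0 to 1 without 1 library and 0 without 53 to 54 nt reads, with TMM factors, with no minimum and with DESeq2. For 3' ends against start 22, 1 to 6 were higher and 1 to 2 lower without 1 library, and DESeq2 called 0 and 1. The cause of these changes was not tested.

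With each fragment counted once, values depend on read depth, as the libraries were not thinned to equal reads. This setting turned the difference for the set's share of listed reads to 1.03, for starts 35 to 38 to 0.68, for ends 71 to 80 to -0.79, for ends 91 to 94 to -0.12, and for the band's log2 share against starts 39 to 67 and 39 to 41 to -0.78 and -0.022. A band of 52 to 55 nt turned these last values, 0.43 and 1.12 as set, to -0.055 and, for starts 39 to 40, which can hold all 4 lengths, -0.77. Starts 31 to 34 differed by 0.060 without 70 nt reads and by -2.38 to 2.35 without 1 library. The ranges without 1 library also crossed 0 for ends 61 to 70 (-0.39 to 4.01), ends 71 to 80 (-0.75 to 3.00) and the band's log2 share against start 22 (-0.86 to 0.00056) and against 39 to 67 (-0.15 to 1.01). The untreated slope was 0.809 without 70 nt reads, 0.564 without 53 to 54 nt reads, 0.617 with each fragment counted once and 0.813 for starts 24 to 37.

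Of 322 alternatives for named features 16 reversed, all at features whose group difference was not called. As a share of all listed reads, log2 differences turned to -0.21 (start 23), -0.031 (28), -0.018 (25), -0.28 (end 81) and -0.11 (end 80). Start 23 gave -0.049 and end 81 -0.0052 without 53 to 54 nt reads, and end 81 gave -0.12 with DESeq2. Without 1 library the ranges were -0.079 to 0.27 (start 23), -0.040 to 0.61 (25), -0.43 to 0.55 (end 81), -0.59 to 0.23 (55 nt), -1.48 to 2.21 (27-81) and -0.79 to 0.021 (27-79). The median log2 difference over all tested fragments was 0.10 as set, 0.46 with TMM factors and 0.29 with DESeq2, and over all 5' ends 0.05 and 0.17 with TMM factors. The untreated libraries, with 314 and 473 reads in the set, limit every comparison.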
